A study of Mus musculus with 8 samples.

Results

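The endothelial genes described here are 34 genes that mark, build or signal to blood and lymph vessels, followed through samples of sorted kidney epithelium. They were chosen by name, and every non-control probe whose systematic name is a RefSeq transcript of 1 of them was read on all arrays. All 34 genes had a probe, with 42 probes and 62 spots among them, and all 34 genes and 42 probes passed the filter on dim probes, out of 23343 genes and 31667 probes tested. The 8 samples were ureteric bud cells from C57BL/6 mice at postnatal day 0, the day of birth. The bud is an epithelial tree whose branches become the collecting ducts of the kidney. The cells were taken from kidneys and sorted by flow cytometry for GFP. The 4 KO samples, labelled DOT1-null, had Dot1 conditionally deleted from cells positive for Hoxb7, a gene of the bud and its derivatives, and the 4 WT samples are labelled wildtype and control. Dot1l encodes a methyltransferase of histone H3. The source of the GFP, the Cre line, the alleles carried by the controls and the number of animals in a sample are not stated in the sources at hand. Each sample was labelled with Cy5 and hybridised to its own array against Cy3-labelled RNA from WT replicate 3, so every value below is a log2 ratio to that 1 RNA, and the array of WT 3 carries the same RNA in both dyes. KO 1 to KO 4 and WT 1 to WT 4 name the arrays.

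Endothelial cells line every vessel and are held together by junction proteins such as VE-cadherin. They grow and branch when VEGF-A, secreted by neighbouring cells, binds the receptor kinase Kdr, with Flt1 acting largely as a decoy, and they are stabilised by Angpt1 acting on the receptor Tek, which Angpt2 mostly opposes. In the newborn kidney, vessels run between the branching bud and the forming nephrons. Transcription factors of the ETS and Sox families hold these genes active.

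In these samples the endothelial genes differed mainly between arrays of 1 group. The array of WT 4 read highest of all 8 for 29 of the 34 genes, and for 22 genes all 4 KO arrays lay between the lowest and the highest WT array. The median endothelial gene read 1.13 higher on the log2 scale, or 2.18-fold, on WT 4 than on the mean of WT 1 to WT 3, where the median over all genes was -0.01. Differences between KO and WT were tested with limma, a linear model fitted to every gene, with p-values adjusted over all 23343 genes and a threshold of 0.05. No endothelial gene passed. The angiopoietin Angpt2 was the 1 gene of the 34 (2.94%) whose KO arrays all lay above all WT arrays. Of the 21215 genes measured on every array, 3.85% did so.

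ETS factors, of which Erg, Fli1 and Ets1 are among the 34 genes, bind DNA around a GGAA core. The 250 bases before the transcription start are shown for the vessel receptors Kdr, Tek, Tie1 and Flt1 and for the surface protein Emcn, because their 5 profiles across the arrays share the high value on WT 4. The sequences are RefSeq's, on GRCm38.p6, written 5′ to 3′ on the strand of the gene. Capitals mark CCGGAA or CAGGAA on either strand, which reads TTCCGG or TTCCTG on the other strand, and the matches shown do not overlap. The Kdr window is chr5:75978456-75978705 (minus strand), with 1 match. The Tek window is chr4:94739039-94739288 (plus strand), with 2. The Tie1 window is chr4:118489850-118490099 (minus strand), with 1. The Emcn window is chr3:137340828-137341077 (plus strand), with 2. The Flt1 window is chr5:147726012-147726261 (minus strand), with 0.
Kdr: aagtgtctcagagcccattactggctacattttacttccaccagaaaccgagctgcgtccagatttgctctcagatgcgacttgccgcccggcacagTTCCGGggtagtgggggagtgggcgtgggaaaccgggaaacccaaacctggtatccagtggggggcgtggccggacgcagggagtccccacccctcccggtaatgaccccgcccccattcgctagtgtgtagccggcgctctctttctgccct
Tek: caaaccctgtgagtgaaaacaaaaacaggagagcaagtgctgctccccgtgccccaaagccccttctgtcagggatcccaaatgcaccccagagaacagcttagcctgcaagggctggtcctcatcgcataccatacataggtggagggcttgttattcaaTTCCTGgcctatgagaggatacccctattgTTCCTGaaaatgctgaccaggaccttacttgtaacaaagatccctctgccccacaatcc
Tie1: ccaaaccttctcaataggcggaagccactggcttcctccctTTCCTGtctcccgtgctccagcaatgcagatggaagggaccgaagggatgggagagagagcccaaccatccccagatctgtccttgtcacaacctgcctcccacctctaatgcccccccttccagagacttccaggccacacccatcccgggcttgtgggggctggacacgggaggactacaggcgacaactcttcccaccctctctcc
Emcn: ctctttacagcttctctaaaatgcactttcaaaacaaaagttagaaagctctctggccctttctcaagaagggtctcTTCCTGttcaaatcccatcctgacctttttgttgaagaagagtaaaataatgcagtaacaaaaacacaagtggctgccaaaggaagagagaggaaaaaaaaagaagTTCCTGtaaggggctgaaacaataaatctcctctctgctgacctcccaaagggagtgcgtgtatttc
Flt1: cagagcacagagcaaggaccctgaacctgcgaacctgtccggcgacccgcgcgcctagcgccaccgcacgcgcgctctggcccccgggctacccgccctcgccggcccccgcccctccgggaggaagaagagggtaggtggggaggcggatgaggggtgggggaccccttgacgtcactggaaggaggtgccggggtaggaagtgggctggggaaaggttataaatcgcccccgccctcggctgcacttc
Of the 34 genes, 14 had such a window in the RefSeq table used, with 19 windows for their different starts. A match lay in 11 of these 19 windows (57.9%), covering 10 genes, and in 11517 of all 32851 windows (35.1%). Other genes high on WT 4 also had windows, which are not shown. Among them Cd34 and Robo4 had a match, and Flt4, Eng and Ehd3 had 0. A match in these letters is a description of the sequence and not a binding site.

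Cy5 was well above background at 59.1% to 95.2% of the spots on the KO arrays and at 52.4% to 56.2% on the WT arrays. KO 3 was the brightest, with a median Cy5 signal of 636 against 93.5 to 137 on the other 7 arrays, and had 7665 flagged spots, against 175 to 216. KO 2 lay among the WT arrays on the first principal component of all genes. The 1 probe of Dot1l had a log2 difference of 0.18 ± 0.11 (SE; adjusted p = 0.342 in limma), and since its position relative to the deletion is not stated, it is no check of the labels. The endothelial genes were measurable throughout. For 33 of the 34, the probe used was well above background on all 8 arrays, the exception being Lyve1 on WT 2, and 0 of their spots were saturated. Of their spots, 4 were flagged on KO 3 and 5 on the other 7 arrays together. All 20 ureteric bud markers tested were also well above background on every array. In bulk samples, fewer vessel cells and less RNA per vessel cell cannot be told apart.

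**Figure D1:**
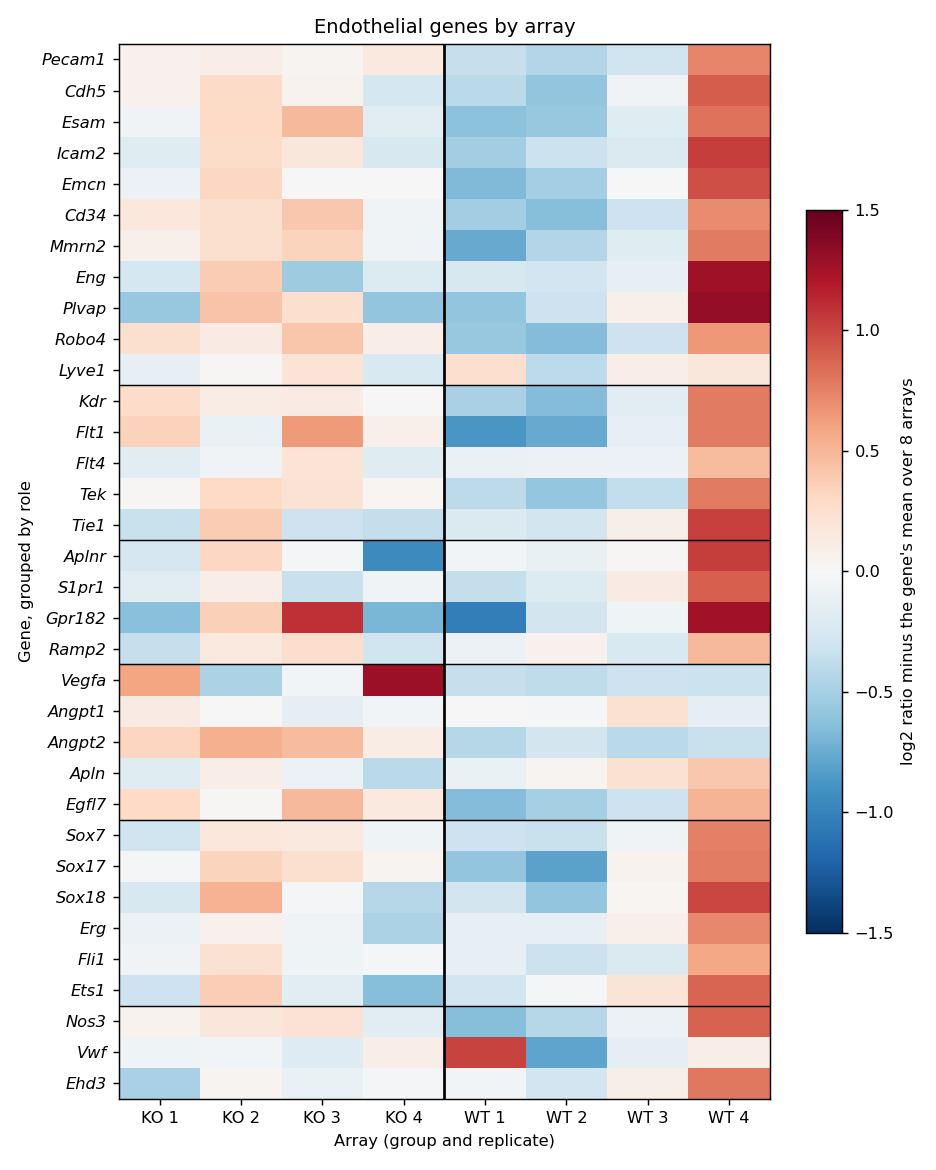
Log2 ratio of each endothelial gene (rows, grouped by role) on each array (columns, KO left of WT), minus the gene's mean over the 8 arrays. The column of WT 4 is high for most genes, with WT 1 and WT 2 low. Angpt2 and Vegfa differ from the rest, Angpt2 being high on all KO arrays and Vegfa on KO 1 and KO 4 only.

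Junction and surface proteins define the cell type. Pecam1 (NM_001032378), an adhesion protein of endothelial junctions, had log2 ratios of 0.32, 0.35, 0.29 and 0.40 on KO 1 to KO 4, against -0.10, -0.19, -0.05 and 0.98 on WT 1 to WT 4. The KO arrays spanned 0.11 and lay above WT 1 to WT 3 and below WT 4. Its log2 difference, KO minus WT, was 0.18 ± 0.23 (SE; adjusted p = 0.666 in limma). Cdh5 (NM_009868), the VE-cadherin of endothelial junctions, read 0.48, 0.71, 0.47 and 0.15 on KO 1 to KO 4, against 0.02, -0.17, 0.37 and 1.32 on WT 1 to WT 4. KO 4 was the lowest of the KO arrays, WT 4 lay far above all other arrays, and the groups overlapped, with a log2 difference of 0.07 ± 0.29 (SE; adjusted p = 0.905 in limma). Emcn (NM_001163522), a sialomucin of capillary and venous endothelium, had log2 ratios of 0.22, 0.62, 0.32 and 0.31 on KO 1 to KO 4, against -0.35, -0.20, 0.31 and 1.28 on WT 1 to WT 4. All KO arrays again lay between WT 1 and WT 4, and the log2 difference was 0.11 ± 0.31 (SE; adjusted p = 0.858 in limma).

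Robo4 (NM_028783), a guidance receptor that stabilises vessels, read 0.10, -0.02, 0.27 and -0.04 on KO 1 to KO 4, against -0.71, -0.80, -0.46 and 0.50 on WT 1 to WT 4 as log2 ratios. WT 1 to WT 3 lay below every KO array and WT 4 above them, for a log2 difference of 0.44 ± 0.25 (SE; adjusted p = 0.311 in limma). Cd34 (NM_133654), a sialomucin of capillary endothelium and blood progenitors, read 0.20, 0.28, 0.44 and -0.01 on KO 1 to KO 4, against -0.48, -0.60, -0.27 and 0.75 on WT 1 to WT 4. As for Robo4, WT 1 to WT 3 lay below and WT 4 above every KO array, and the log2 difference was 0.38 ± 0.27 (SE; adjusted p = 0.411 in limma). Eng, a TGF-beta co-receptor, and Plvap, the protein of fenestral diaphragms, are added after their values were seen, for their large gap on WT 4. Eng (NM_001146350) had log2 ratios of 0.41, 1.06, 0.14 and 0.46 on KO 1 to KO 4, against 0.43, 0.39, 0.55 and 1.94 on WT 1 to WT 4. KO 2 was high among the KO arrays as WT 4 was among the WT arrays. Plvap (NM_032398) read -0.24, 0.75, 0.57 and -0.27 on KO 1 to KO 4, against -0.28, 0.01, 0.40 and 1.64 on WT 1 to WT 4. KO 2 and KO 3 were high and KO 1 and KO 4 low, so the KO arrays were split too. The log2 differences were -0.31 ± 0.34 (SE; adjusted p = 0.604 in limma) for Eng and -0.24 ± 0.40 (SE; adjusted p = 0.748 in limma) for Plvap. Of the 11 surface proteins, 8 had a log2 difference above 0 and 3 below, from -0.31 to 0.44, and 0 passed the test. The other members of this group were the adhesion proteins Esam and Icam2 and the matrix protein Mmrn2, with log2 differences of 0.28, 0.01 and 0.30, and Lyve1, a hyaluronan receptor of lymphatic vessels and some macrophages, at -0.06. Lyve1 was 1 of the 5 genes in which WT 4 was not the highest array, and its values are added for that reason, after they were seen. Its log2 ratios were -0.04, 0.10, 0.29 and -0.15 on KO 1 to KO 4, against 0.33, -0.31, 0.18 and 0.25 on WT 1 to WT 4, with WT 1 on top.

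The receptors through which VEGF and the angiopoietins act are kinases of the endothelial surface. Kdr (NM_010612), the main signalling receptor for VEGF-A, had log2 ratios of 0.59, 0.43, 0.45 and 0.33 on KO 1 to KO 4, against -0.17, -0.32, 0.16 and 1.09 on WT 1 to WT 4 at the brighter of its 2 probes. The KO arrays lay close together, above WT 1 to WT 3 and below WT 4. The log2 difference was 0.26 ± 0.27 (SE; adjusted p = 0.573 in limma). Flt1 (NM_010228), which binds VEGF-A with high affinity and signals little, read 0.29, -0.16, 0.58 and 0.02 on KO 1 to KO 4, against -0.93, -0.82, -0.19 and 0.72 on WT 1 to WT 4. KO 1 and KO 3 were high among the KO arrays, and WT 1 and WT 2 were the lowest of all arrays. Its log2 difference of 0.49 ± 0.33 (SE; adjusted p = 0.397 in limma) was the largest of the 5 receptors. Tek (NM_013690), the angiopoietin receptor, had log2 ratios of 0.25, 0.52, 0.45 and 0.26 on KO 1 to KO 4, against -0.16, -0.35, -0.14 and 1.01 on WT 1 to WT 4. As for Pecam1, the KO arrays lay between WT 4 and the other WT arrays, for a log2 difference of 0.28 ± 0.26 (SE; adjusted p = 0.533 in limma). Tie1 (NM_011587), its partner receptor, read 0.56, 1.28, 0.58 and 0.54 on KO 1 to KO 4, against 0.67, 0.62, 0.98 and 1.92 on WT 1 to WT 4. Here KO 1, KO 3 and KO 4 lay below WT 1 to WT 3, and KO 2 stood above them. The log2 difference of Tie1 was -0.31 ± 0.29 (SE; adjusted p = 0.533 in limma), opposite in sign to that of Tek. Flt4, the receptor for VEGF-C of lymphatic endothelium, had a log2 difference of -0.10 ± 0.15 (SE; adjusted p = 0.713 in limma). The size of this difference depended on the processing. It was -0.30 ± 0.33 (SE) with an offset of 0 in the background correction and -0.77 ± 0.47 (SE) with the scanner's own ratio. Of the 5 receptors, 3 were above 0 and 2 below, and 0 passed the test.

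Angpt2, Angpt1 and Vegfa did not share this profile. Angpt2 (NM_007426), which endothelial cells store and release to loosen vessels, had log2 ratios of 0.59, 0.79, 0.73 and 0.37 on KO 1 to KO 4, against -0.17, -0.02, -0.14 and -0.07 on WT 1 to WT 4. Every KO array lay above every WT array, as for 3.85% of all genes measured on every array, and WT 4 lay among the other WT arrays. The means were 0.62 ± 0.19 in KO and -0.10 ± 0.07 in WT (SD, n = 4 each). The log2 difference of 0.72 ± 0.11 (SE; adjusted p = 0.0834 in limma), or 1.65-fold, did not pass the threshold of 0.05 over all genes. Its unadjusted limma p was 6.07e-05, the only 1 among the 34 genes that was under 0.05, where 5616 of all 23343 genes (24.1%) were. Angpt1 (NM_009640), the opposing ligand, which vessel-supporting cells are known to make, is added after its values were seen. Its log2 ratios were -0.32, -0.43, -0.57 and -0.47 on KO 1 to KO 4, against -0.44, -0.47, -0.21 and -0.57 on WT 1 to WT 4. The groups overlapped throughout, and the log2 difference was -0.03 ± 0.10 (SE; adjusted p = 0.892 in limma).

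Vegfa, the main growth factor for endothelium and one that epithelial cells and podocytes secrete, was split among the KO samples. Its brighter probe (NM_001025250) had log2 ratios of 1.22, 0.15, 0.59 and 1.91 on KO 1 to KO 4, against 0.28, 0.25, 0.32 and 0.31 on WT 1 to WT 4. KO 4 and KO 1 were the highest, KO 2 lay below all WT arrays, and the 4 WT arrays spanned 0.07. The log2 difference was 0.68 ± 0.31 (SE; adjusted p = 0.220 in limma), with an SD of 0.77 in KO and 0.03 in WT (n = 4 each). The other probe, for the transcript NM_001025257, read 0.69, 0.44, -0.08 and 1.15 on KO 1 to KO 4, against 0.58, 0.78, 0.81 and 0.55 on WT 1 to WT 4. It was also highest on KO 4, but KO 3 was its lowest array and its log2 difference was -0.13 ± 0.22 (SE; adjusted p = 0.751 in limma). Vegfa is a textbook target of the hypoxia response. The 15 hypoxia genes had a median log2 deviation from their gene means of 0.01, -0.10, -0.19 and 0.63 on KO 1 to KO 4, against -0.02, -0.31, -0.10 and 0.06 on WT 1 to WT 4. KO 4 was thus the highest array for that list as for Vegfa. The glucose transporter Slc2a1, one of the list, read 0.68, -0.14, 0.13 and 1.43 on KO 1 to KO 4, against -0.28, -0.78, -0.03 and -0.37 on WT 1 to WT 4, with a log2 difference of 0.89 ± 0.31 (SE; adjusted p = 0.141 in limma). Of the 15 hypoxia genes 12 had a log2 difference above 0 and 3 below, with a median of 0.24, and 0 passed the test in limma, where 2 had an unadjusted p under 0.05. The part of the hypoxia response in the Vegfa values was not tested.

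Apln (NM_013912), a peptide that sprouting endothelium secretes, had log2 ratios of -0.48, -0.20, -0.39 and -0.70 on KO 1 to KO 4, against -0.40, -0.25, -0.07 and 0.11 on WT 1 to WT 4. KO 4 was the lowest array and WT 4 the highest, with overlap between the groups, and the log2 difference was -0.29 ± 0.14 (SE; adjusted p = 0.238 in limma). Egfl7 (NM_178444), a matrix protein secreted by endothelium, read 0.16, -0.12, 0.35 and 0.002 on KO 1 to KO 4, against -0.79, -0.63, -0.45 and 0.37 on WT 1 to WT 4. Unlike Angpt2, Egfl7 had its highest value on WT 4, closely followed by KO 3. WT 1 to WT 3 were all below the KO arrays, and the log2 difference was 0.48 ± 0.23 (SE; adjusted p = 0.241 in limma). Of the 5 secreted factors, 3 had a log2 difference above 0 and 2 below.

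**Figure D2:**
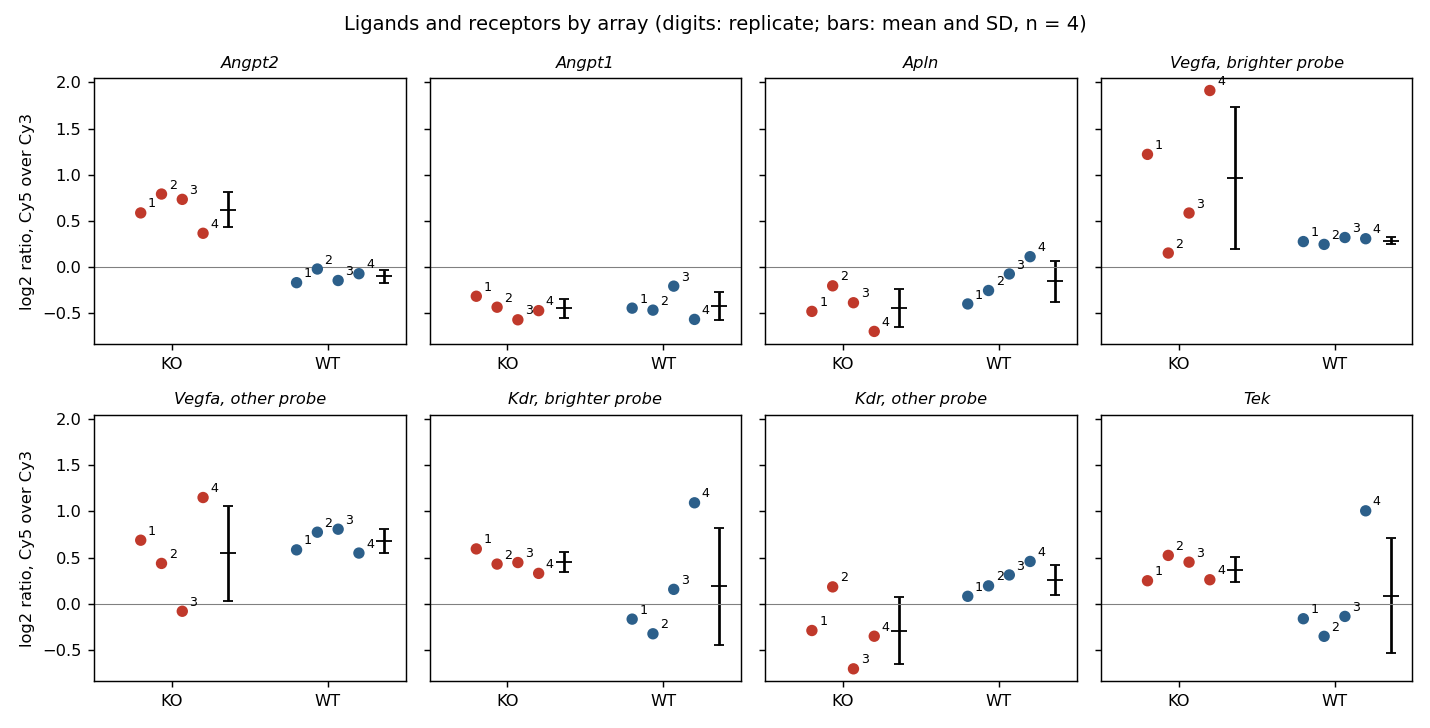
Log2 ratio of Cy5 over Cy3 (vertical axis) on each KO (red) and WT (blue) array, with the replicate number beside each point and bars for the mean and SD (n = 4), for 4 ligands and 2 receptors. Angpt2 is the only gene shown whose groups do not overlap, the 2 Vegfa probes spread among KO arrays, and Kdr and Tek are high on WT 4.

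Among G-protein-coupled receptors, Aplnr (NM_011784), the apelin receptor of venous and sprouting endothelium, had log2 ratios of 0.24, 0.79, 0.47 and -0.47 on KO 1 to KO 4, against 0.44, 0.38, 0.50 and 1.52 on WT 1 to WT 4. KO 4 was the lowest and WT 4 the highest of the 8 arrays, and the log2 difference was -0.45 ± 0.31 (SE; adjusted p = 0.397 in limma). Gpr182, an atypical chemokine receptor of sinusoidal and lymphatic endothelium, had the widest spread of the 34 genes in both groups and is added after its values were seen. Its log2 ratios (NM_007412) were -1.16, -0.17, 0.56 and -1.22 on KO 1 to KO 4, against -1.57, -0.81, -0.60 and 0.73 on WT 1 to WT 4. KO 3 and WT 4 were high and KO 1, KO 4 and WT 1 low, so neither group held together. The log2 difference was 0.07 ± 0.51 (SE; adjusted p = 0.952 in limma). S1pr1, the sphingosine-1-phosphate receptor that closes junctions, and Ramp2, the partner of the adrenomedullin receptor, had log2 differences of -0.23 and -0.12. Of these 4 genes 1 was above 0 and 3 below, and 0 passed.

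Transcription factors of the ETS and Sox families had WT 4 as the highest of the 8 arrays in 6 of 6 cases. Erg (NM_133659), an ETS factor that keeps endothelial identity, had log2 ratios of -0.15, -0.003, -0.12 and -0.53 on KO 1 to KO 4, against -0.18, -0.18, 0.01 and 0.66 on WT 1 to WT 4. KO 4 was the lowest array, WT 4 the highest, and the rest lay close together. The log2 difference was -0.28 ± 0.20 (SE; adjusted p = 0.408 in limma). Ets1 (NM_011808), the founding ETS factor, also made by lymphocytes and mesenchyme, read -0.39, 0.30, -0.25 and -0.71 on KO 1 to KO 4, against -0.36, -0.10, 0.12 and 0.80 on WT 1 to WT 4. KO 2 stood above the other KO arrays and WT 4 above all, and the log2 difference was -0.38 ± 0.27 (SE; adjusted p = 0.411 in limma). Sox17 (NM_011441), which specifies arterial endothelium, had log2 ratios of -0.12, 0.24, 0.15 and -0.05 on KO 1 to KO 4, against -0.68, -0.89, -0.04 and 0.67 on WT 1 to WT 4. KO arrays lay above WT 1 and WT 2 and below WT 4, with a log2 difference of 0.29 ± 0.30 (SE; adjusted p = 0.574 in limma). The related Sox7 and Sox18 had log2 differences of -0.03 and -0.08, and the ETS factor Fli1 had one of 0.04. Of the 6 factors 2 were above 0 and 4 below, and 0 passed.

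The remaining 3 genes encode enzymes and stored proteins. Nos3, the endothelial nitric oxide synthase, had a log2 difference of 0.13 ± 0.28 (SE; adjusted p = 0.803 in limma). Ehd3 (NM_020578), a membrane-trafficking protein of glomerular endothelium, read -0.41, 0.12, -0.03 and 0.06 on KO 1 to KO 4, against 0.04, -0.21, 0.17 and 0.87 on WT 1 to WT 4. KO 1 was low and WT 4 high, and the log2 difference was -0.28 ± 0.22 (SE; adjusted p = 0.455 in limma). Vwf (NM_011708), the clotting factor that endothelium and platelets store, is added after its values were seen because its WT arrays were ordered otherwise. Its log2 ratios were 0.16, 0.18, 0.03 and 0.32 on KO 1 to KO 4, against 1.23, -0.58, 0.08 and 0.32 on WT 1 to WT 4. WT 1, not WT 4, was the highest array and WT 2 the lowest, while the KO arrays lay close together. Its log2 difference was -0.09 ± 0.31 (SE; adjusted p = 0.878 in limma).

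Between KO and WT, limma called 0 of the 34 endothelial genes at an adjusted p under 0.05, with 18 log2 differences above 0 and 16 below. Over all genes it called 2, or 0.00857% of 23343, so a count of 0 is near the background. The median log2 difference was 0.03 over the endothelial genes and -0.02 over all genes. The 2 groups of arrays were fully separate for 1 of the 34 (2.94%), Angpt2, against 11.5% of the 21215 genes measured on every array. For a gene higher in KO, as Angpt2 was, that share was 3.85%. Over all 31667 probes limma called 2 (0.00632%), and 0 of the 42 endothelial probes. The samples are described as biological replicates, with no animal or litter named, and the p-values therefore reflect the spread between these samples. KO and WT arrays occupied different rows of 1 slide, and an effect of the row cannot be told apart from one of genotype.

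The 8 genes with 2 tested probes show which patterns depend on the probe. WT 4 was the highest of the 8 arrays on both probes for 7 of them, Vegfa being the exception. The sign of KO minus WT was the same on both probes for 3, Erg, Plvap and Sox17. At the dimmer probe of Kdr, also for NM_010612, log2 ratios were -0.29, 0.18, -0.70 and -0.35 on KO 1 to KO 4, against 0.08, 0.19, 0.31 and 0.46 on WT 1 to WT 4. KO 1, KO 3 and KO 4 lay below all WT arrays and KO 2 among them. The log2 difference was -0.55 ± 0.17 (SE; unadjusted p = 0.00968, adjusted p = 0.124 in limma), opposite in sign to that of the brighter probe. The dimmer probe of Cd34 had a log2 difference of -0.04 ± 0.20 (SE; adjusted p = 0.915 in limma), where the brighter one was above 0. The 5 genes whose probes differed in sign were Cd34, Ets1, Kdr, Nos3 and Vegfa.

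Most of these genes shared a gap on WT 4. WT 4 was the highest of the WT arrays for 29 of 34 genes (85.3%), where it was for 25.8% of all genes, and by at least 0.5 for 27, against 1.07% of all genes. WT 4 read above the mean of WT 1 to WT 3 by 1.72 for Gpr182, 1.60 for Plvap and 1.49 for Eng on the log2 scale, the 3 widest gaps. The 6 genes with a gap under 0.5 were Apln at 0.36, Lyve1 at 0.19, Vwf at 0.07, Angpt2 at 0.04, Vegfa at 0.03 and Angpt1 at -0.19. These include the ligands that other cells are known to make, as well as endothelial products. A gap of at least 1 was found for 109 genes of the whole array (0.467%), and 20 of the 34 endothelial genes were among them, or 18.3% of the 109. Another 16 of the 109 came from a second list of 36 endothelial genes, 34 of them tested, and 0 from the lists for mural cells, leukocytes, stroma or the ureteric bud. The lists for hypoxia, angiogenic signalling, podocytes and erythroid cells were not counted among the 109. At least Epas1 and Egln3 of the hypoxia list, added after their values were seen, had such a gap too. On WT 1 to WT 4, Epas1 read -1.01, -1.14, -0.34 and 0.44, and Egln3 read 0.32, 0.14, 0.12 and 1.25.

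The other lists show whether further cell types differed in the same arrays. Median log2 deviations of the endothelial genes from their means were -0.08, 0.20, 0.14 and -0.06 on KO 1 to KO 4, against -0.35, -0.36, -0.09 and 0.78 on WT 1 to WT 4. The second endothelial list read -0.12, 0.18, -0.03 and -0.05 in KO, against -0.36, -0.31, -0.02 and 0.78 in WT. Both lists were thus highest on WT 4 and lowest on WT 1 and WT 2. Mural cell markers, which mark the pericytes and muscle around vessels, read -0.50, 0.23, -0.31 and -0.06 in KO, against 0.18, 0.25, -0.11 and 0.07 in WT. Leukocyte markers read -0.32, -0.02, -0.18 and -0.16 in KO, against 0.55, -0.18, 0.27 and -0.11 in WT. Neither list was at its highest on WT 4. On stroma markers the medians were -0.72, 0.58, -0.61 and 0.02 in KO, against 0.55, 0.56, -0.73 and 0.21 in WT, and podocyte markers were highest on WT 2, at 0.74. The median of the ureteric bud markers stayed between -0.21 and 0.12 on all arrays, while single markers of that list varied more widely. WT 4 read at least 0.5 above the mean of the other WT arrays for 28 of 34 endothelial genes and 25 of 34 of the second list. It did so for 0 of 12 mural, 0 of 15 leukocyte, 0 of 7 erythroid, 1 of 9 podocyte, 1 of 9 stroma and 2 of 20 ureteric bud markers, where 2.00% of all genes did. Of the remaining lists, 5 of 28 genes of angiogenic signalling and 2 of 15 hypoxia genes had such a gap. All 12 mural and 15 leukocyte markers tested were well above background on every array. The part of other cell types in the endothelial values was not tested.

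**Figure D3:**
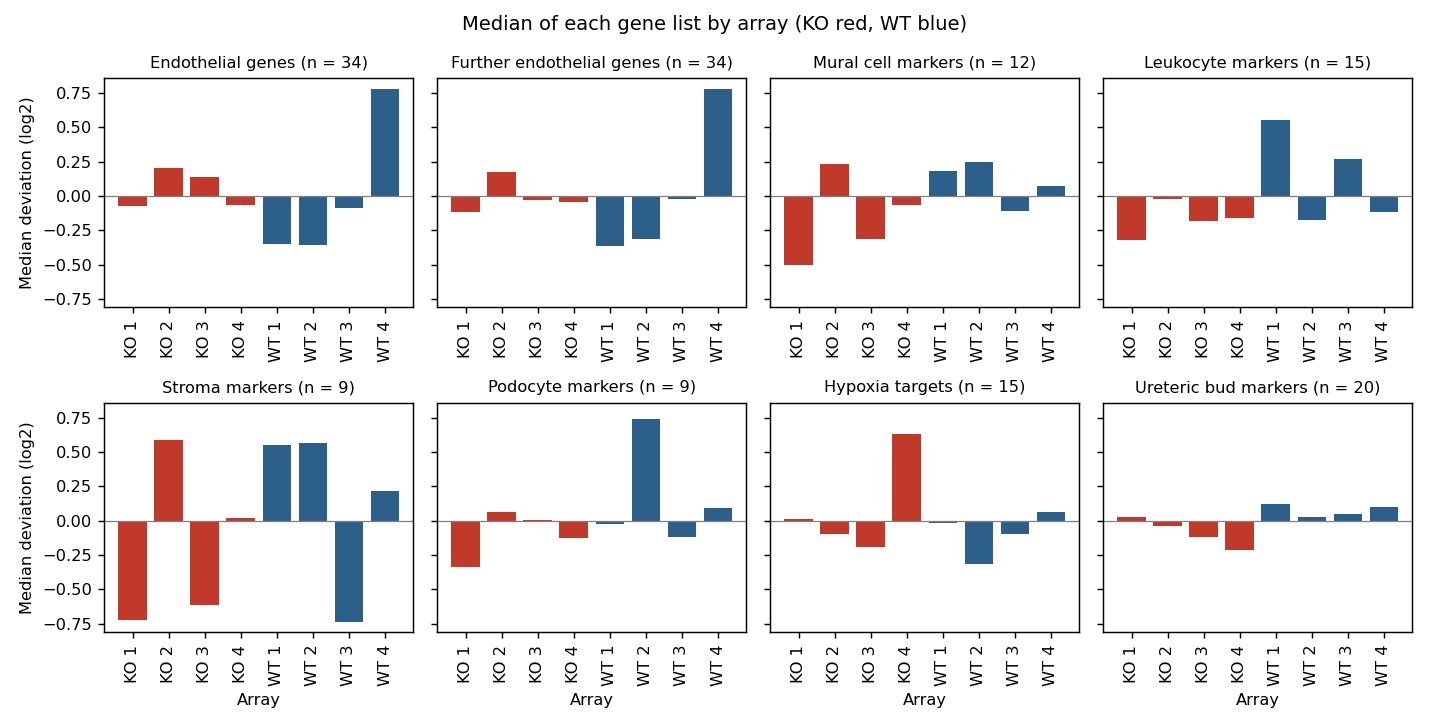
Median log2 deviation from each gene's mean over the 8 arrays (vertical axis), for 8 gene lists, on the KO arrays (red) and the WT arrays (blue). Both endothelial lists reach 0.78 on WT 4, while mural, leukocyte, stroma, podocyte and ureteric bud markers have other profiles.

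Within KO the endothelial genes also had an order, which they shared in part with other lists. By list median, KO 2 was the highest and KO 1 the lowest KO array for mural, leukocyte, stroma and podocyte markers. Among KO arrays the hypoxia genes were instead highest on KO 4 and the ureteric bud markers on KO 1. KO 2 or KO 3 was the highest KO array for 29 of 34 genes (85.3%), against 48.9% of all genes, and KO 1 or KO 4 was the lowest for 25 (73.5%), against 35.6% of all genes. In the second endothelial list KO 2 or KO 3 was the highest KO array for 29 of 32 genes with values on all arrays (90.6%), but KO 1 or KO 4 was the lowest for only 15 (46.9%). All 4 KO arrays lay between the lowest and the highest WT array for 22 genes (64.7%), against 8.64% of all genes. The SD within WT exceeded the SD within KO for 31 of the 34, against 27.9% of all genes, with Ramp2, Angpt2 and Vegfa the 3 exceptions. For 18 of the 34 the SD within WT was at least 2 times that within KO, a count not made over all genes. The median SD of the endothelial genes was 0.20 in KO and 0.60 in WT on the log2 scale, where the medians over all genes were 0.19 in KO and 0.12 in WT. The contrast depended on the normalisation, since the medians were 0.40 in KO and 0.66 in WT with median centring, and 0.45 in KO and 0.60 in WT with Cy5 alone. Without WT 4 the median SD in WT was 0.19, against 0.11 over all genes. Of the 34, 13 (38.2%) then had a larger SD in WT than in KO, against 25.4% of all genes. Without KO 2 and KO 3 the median SD in KO was 0.10, as it was over all genes, and it rests on KO 1 and KO 4 alone. The widest spread in KO was that of Gpr182, at 0.85, and the narrowest that of Pecam1, at 0.05.

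**Figure D4:**
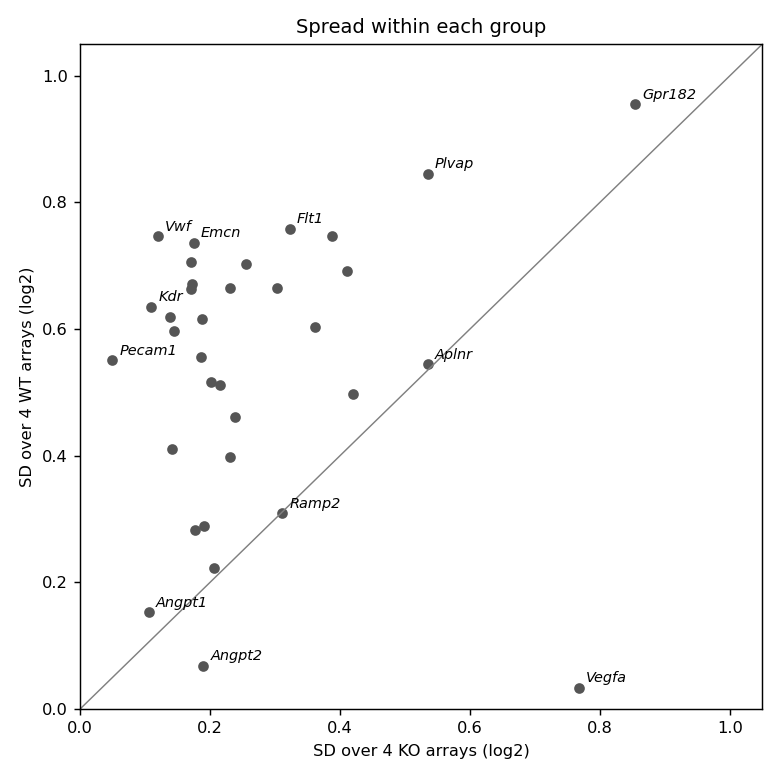
SD of each endothelial gene over the 4 KO arrays (horizontal axis) and over the 4 WT arrays (vertical axis), both on the log2 scale, with the line of equal spread. Of the 34 points, 31 lie above the line, and Vegfa lies far below it.

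The comparison of KO with WT depended on WT 4. Without that array 25 of the 34 genes had a log2 difference above 0, with a median of 0.30, against -0.02 over all genes. WT 4 was the highest WT array for 29 of the 34, so leaving it out must raise their log2 differences. The direction of this move is thus the gap on WT 4 seen again and not a separate result. In this fit Pecam1 had a log2 difference of 0.45 ± 0.09 (SE; adjusted p = 0.179 in limma), Kdr one of 0.56 ± 0.13 (SE; adjusted p = 0.179 in limma), Robo4 one of 0.73 ± 0.12 (SE; adjusted p = 0.151 in limma) and Tek one of 0.59 ± 0.11 (SE; adjusted p = 0.179 in limma). For all 4 the adjusted p stayed above 0.05. Angpt2 hardly moved, at 0.73 ± 0.12 (SE; adjusted p = 0.151 in limma). limma called 0 of the 34 in this fit, and 1 of all genes (0.00428%). Flt4, Eng, Plvap, Sox18, Sox7, Ramp2 and S1pr1 turned from below 0 with all arrays to above 0 without WT 4.

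The number of genes called turned on KO 2. Without it limma called 4947 genes (21.2%), among them 2 of the 34 endothelial genes (5.88%), both higher in KO. These were Angpt2, with a log2 difference of 0.66 ± 0.10 (SE; adjusted p = 0.00461 in limma), and Vegfa, at 0.95 ± 0.25 (SE; adjusted p = 0.0296 in limma). The Vegfa value is that of its brighter probe, which read lowest on KO 2. With all arrays its other probe had a log2 difference of -0.13. Without KO 2 and KO 3 limma called 5510 genes (23.6%) and the same 2 endothelial genes, Angpt2 at 0.58 ± 0.10 (SE; adjusted p = 0.00625 in limma) and Vegfa at 1.28 ± 0.17 (SE; adjusted p = 0.00276 in limma). Leaving out WT 4 with both, a choice made after seeing the data that leaves 2 KO and 3 WT arrays, it called 4687 genes (20.1%) and 7 of the 34 (20.6%). These were Angpt2, Vegfa, Pecam1, Cd34, Egfl7, Robo4 and Tek, all higher in KO. Pecam1 then had a log2 difference of 0.47 ± 0.09 (SE; adjusted p = 0.0194 in limma), Tek one of 0.47 ± 0.10 (SE; adjusted p = 0.0254 in limma) and Robo4 one of 0.68 ± 0.13 (SE; adjusted p = 0.0162 in limma). The share of endothelial genes called was below or near the share of all genes in these 3 fits. Over 21 alternative settings the log2 difference of Angpt2 ran from 0.51 to 1.09, with adjusted p from 0.00461 to 0.526, and it was called in 4. That of Vegfa ran from 0.28 to 1.29, with adjusted p from 0.00276 to 0.607, and it was called in the same number. Pecam1, Tek, Robo4, Egfl7 and Cd34 were each called in 1 setting, that without WT 4, KO 2 and KO 3, and their adjusted p reached 0.536 to 0.980 in the others. With median centring and Cy5 alone, log2 differences are given after the median shift of all genes was taken off, but limma's adjusted p tests them before that. The highest adjusted p of Angpt2 came from Cy5 alone, and those of Vegfa, Pecam1, Robo4, Egfl7 and Cd34 from median centring.

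**Figure D5:**
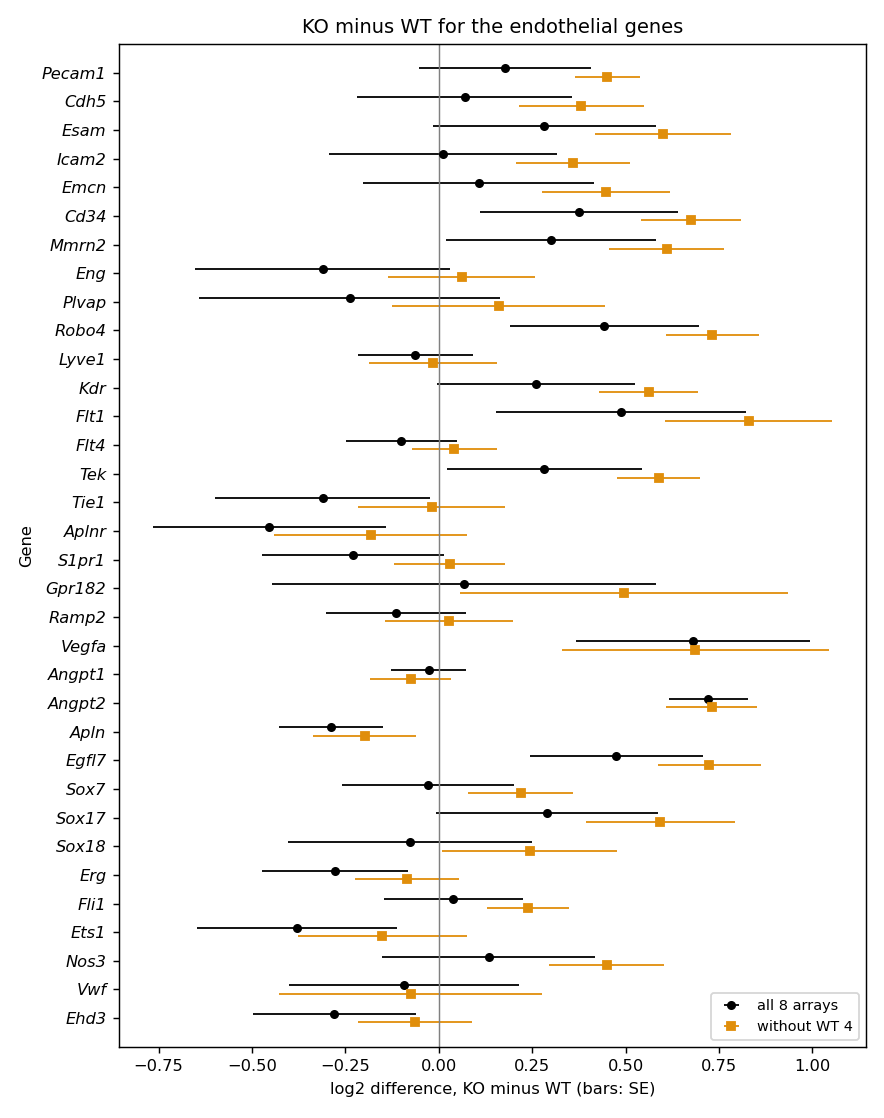
Log2 difference, KO minus WT (horizontal axis), of each endothelial gene with its SE (bars), from all 8 arrays (black) and without WT 4 (orange). Most genes lie further to the right without WT 4, which follows from their high value on that array, while Angpt2, Vegfa and Angpt1 hardly move.

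Other vessel genes were compared with KO and WT in the same fit, from lists named with these results known. Of the 36 genes of the second endothelial list 34 were tested, 15 had a log2 difference above 0 and 19 below, the median was -0.02 and 0 passed in limma, with 2 at an unadjusted p under 0.05. Of 29 genes of angiogenic signalling 28 were tested, with 10 above 0, 18 below, a median of -0.08 and 0 past the test, with 7 at an unadjusted p under 0.05, where 24.1% of all genes were. Of the mural cell markers 1 of 12 was above 0, with a median log2 difference of -0.26, and of the leukocyte markers 2 of 15, with a median of -0.27. The podocyte and stroma markers each had 1 of 9 above 0 and medians of -0.37. With all 8 arrays, 0 genes of these 4 marker lists passed in limma, where 3 mural, 5 leukocyte, 3 podocyte and 0 stroma markers had an unadjusted p under 0.05, as did 24.1% of all genes. Of the 20 ureteric bud markers 8 were above 0 and 12 below, with a median log2 difference of -0.07. In limma 0 of them passed, with 7 at an unadjusted p under 0.05.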

How the data were processed

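Gene expression in ureteric bud cells was read on 8 Agilent 2-colour arrays, 4 KO and 4 WT. Per the labels, Cy5 marked the sample and Cy3 marked RNA of WT replicate 3. No dye was swapped. The deposited scanner files hold intensity values for 62976 spots, and the submitters' processing notes name Agilent Feature Extraction 10.7.3.1 as the authors' software. They also hold a log10 ratio that the authors' scanner software had background-corrected and dye-normalised, per the file headers, and the deposited series value table holds the same log10 ratios.

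Median intensities were background-corrected by normexp with an offset of 50. Loess within arrays then normalised the log2 ratios, using limma 3.58.1 under R 4.3.3 (version 1.17.8 of data.table, version 2.0.0 of jsonlite). The files hold no mean signals for this step. Control spots had weight 0, flagged spots were left out and spots of a probe averaged. Probes needed Cy5 well above background on 4 or more of the 8 arrays and 3 or more unflagged arrays in each group. Names were matched through RefSeq (GRCm38.p6), and 21717 of 37850 systematic names matched. The brightest probe stood for a gene, leaving 23343 genes, 15113 of them with a symbol. The groups were compared by limma's lmFit and eBayes (2-sided), p-values were adjusted over all genes by Benjamini-Hochberg, and the threshold was 0.05. The number of arrays limits the precision. The script was tested on simulated data. Figures were drawn with matplotlib 3.10.9 and tables handled with pandas 2.3.3.

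The endothelial genes and all other lists were chosen with earlier results of these data known. All 34 endothelial genes are named. Values by array are given for Pecam1, Cdh5, Kdr, Tek, Tie1, Emcn, Erg, Sox17 and Vegfa and for the 12 endothelial genes with the smallest p, with additions marked, and the 3 genes with the smallest p were taken from each other list. Of these only Slc2a1, Aldoa, Edn1, Sphk1 and Ece1 are printed, and the others are not reported here. Replicate numbers did not pair the samples: the correlation of deviations from the group means was -0.236, 0.051, 0.112 and -0.025 for numbers 1 to 4. Alternatives were other background corrections, the scanner's own ratio, the series value table, median centring, quantile-normalised Cy5 alone, scaling between arrays, other filters, the mean over probes, array weights, replicate number as a block and arrays left out.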

Additional observations from a re-analysis of the deposited data

Results flagged for a closer look

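In 7 of the 68 groups of 4 arrays, 1 array lay so far from the other 3 that the gap exceeded Dixon's critical share of the group's range. Chance flags about 1 in 20 groups, and the genes are not independent of each other. Of the 7 flags, 5 fell on WT 4. The log2 ratio on WT 4 was 0.57 for Flt4, 1.52 for Aplnr, 0.98 for Pecam1, 1.01 for Tek and 1.94 for Eng, each above the other WT arrays. The other 2 flags fell on KO 2, with 1.28 for Tie1 and 0.30 for Fli1, each above the other KO arrays. The cause of these values was not tested.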

How the results depend on the processing

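With all 8 arrays, 0 of the 34 endothelial genes were called by limma under normexp offset 0, the scanner's log ratio, the series value table, median centring, Cy5 alone, scaling between arrays, either filter, the mean over probes and the replicate block. Array weights called 2, Angpt2 and Vegfa, as did the fit without KO 2 and KO 3, and the fit without WT 4, KO 2 and KO 3 called 7. Leaving out 1 array in turn called 0 to 2, with 2 only without KO 2. Over all genes the count of 2 was 1 with offset 0 or the mean over probes, 5 with scaling, 4 with no filter (4 probes), and 4432 with array weights. It was 0 with median centring and 0 with Cy5 alone, where 6785 and 3671 genes had an unadjusted p under 0.05. Without KO 2 and KO 3 it was 5510 (7436 probes), and without WT 4, KO 2 and KO 3 it was 4687. Leaving out 1 array gave 1 to 4947 genes and 1 to 6692 probes, the highest without KO 2, and 8 genes without KO 3. With the replicate block limma called 0 genes and 0 probes, with 5264 genes at an unadjusted p under 0.05, and the numbers do not pair the samples. The slide as a block could not be fitted, since all arrays lie on 1 slide.

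The gap of WT 4 over the other WT arrays had a median of 1.06 to 1.34 over the endothelial genes under the alternatives that keep WT 4 and change its values or the arrays it is set against. The median SD in WT was 0.19 without WT 4, with or without KO 2 and KO 3, and leaving out 1 array gave 0.19 to 0.73. The median SD in KO was 0.40 with median centring and 0.45 with Cy5 alone. Median centring and Cy5 alone shifted the median of all genes to -0.30 and -0.18, and their gene values are given relative to that shift. Their p-values and counts of genes called come from the limma fit before the shift was taken off, so they do not test the printed values.

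Some log2 differences changed sign, and the cause was not tested. With median centring Sox7 was 0.11, Vwf 0.0025, Icam2 -0.25, Angpt1 0.0179, Gpr182 -0.0128, Lyve1 0.0245 and the hypoxia gene Aldoa -0.10. With Cy5 alone Fli1 was -0.19 and Ramp2 0.0752, and with the mean over probes Kdr was -0.15. Angpt1 was 0.0076 with offset 0, 0.0264 with the scanner ratio, 0.0271 with the series value table, 0.0479 with scaling and 0.0052 with array weights. Icam2 was -0.0059 with the scanner ratio, -0.0054 with the series value table and -0.0240 with array weights, and Gpr182 -0.14 with array weights. Without KO 2 and KO 3, Cdh5 was -0.0683, Fli1 -0.0244, Icam2 -0.20, Angpt1 0.0273 and Gpr182 -0.63. Without WT 4, KO 2 and KO 3, Sox7 was 0.0508, S1pr1 0.0336 and Gpr182 -0.20. Leaving out 1 array in turn gave -0.15 to 0.22 for Sox7, -0.12 to 0.38 for Cdh5, -0.0610 to 0.24 for Fli1, -0.16 to 0.36 for Icam2, -0.29 to 0.50 for Gpr182, -0.0757 to 0.0443 for Angpt1, -0.29 to 0.24 for Sox18, -0.20 to 0.0092 for Lyve1, -0.0957 to 0.45 for Emcn, -0.37 to 0.23 for Vwf, -0.0557 to 0.45 for Nos3, -0.18 to 0.0413 for Flt4, -0.49 to 0.0611 for Eng, -0.48 to 0.16 for Plvap, -0.22 to 0.0274 for Ramp2 and -0.39 to 0.0293 for S1pr1.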

Other observations

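On the array of WT 3 the same RNA lay in both dyes, so a log2 ratio away from 0 there is not a difference between samples. It can come from the probe and the dyes or from the noise of that array, which 1 array cannot tell apart. Among the 34 endothelial genes these ratios ran from -0.64 to 0.98, with a median size of 0.18, against 0.16 over all genes. Tie1 had the highest of them and Esam the lowest. Any fixed offset of the probe and the dyes is common to all 8 arrays as far as the Cy3 RNA is read alike on each. Such an offset then cancels in KO minus WT and in differences between arrays, while noise of 1 array does not.

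Among 28 measured genes of angiogenic signalling outside the 34, Edn1 and Sphk1 had all KO arrays above all WT arrays and Ece1 had them all below. A share of 3 in 28 is near that of all genes, of which 11.5% of those measured on every array had fully separate groups. Edn1, a vasoconstrictor peptide, had log2 ratios of 0.86, 1.04, 0.53 and 0.82 on KO 1 to KO 4, against -0.01, -0.02, 0.11 and 0.34 on WT 1 to WT 4, a difference of 0.71 ± 0.13 (SE; adjusted p = 0.103 in limma). Sphk1, which makes sphingosine-1-phosphate, had a log2 difference of 0.58 ± 0.12 (SE; adjusted p = 0.105 in limma), and Ece1, which cleaves the endothelin precursor, one of -0.57 ± 0.16 (SE; adjusted p = 0.112 in limma). The 7 erythroid markers tested had a median log2 difference of -0.06, and on WT 4 they read below the mean of the other WT arrays in the median, with a gap of -0.37.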
